A study of Mus musculus with 5 samples.

Results

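The genes described here encode the proteins of the cytosolic ribosome. Members are all genes of the count table whose symbol starts with Rpl or Rps followed by a digit, together with Rpsa, Rplp0, Rplp1 and Rplp2, and without symbols that hold "-ps" (pseudogenes by name) or the Rps6k kinases. This rule found 87 of 27998 genes, and it uses names only, not measured values. Of the 87, 77 are structural proteins of the ribosome (31 of the small and 46 of the large subunit), 9 are paralogs, which are close relatives of a structural protein encoded by another gene, and 1, Rps19bp1, is a protein that binds Rps19 and is not itself part of the ribosome. The members lie on 19 chromosomes, with at most 14 on any of them.

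The RNA came from live CD45+ (immune) cells of 3 mice, each sampled at 3 sites: the tumour, the lymph node that drains it and a lymph node that does not. Mouse 1 had received nivolumab_mIgG1_D265A, mouse 2 nivolumab_mIgG1 and mouse 3 the isotype control antibody MOPC21. Nivolumab is an antibody against human PD-1, an inhibitory receptor of T cells, and the first 2 names give it a mouse IgG1 backbone, in the first with an exchange named in the label. For the mice themselves (strain, age, whether they carry human PD-1) and for the tumour line, the labels give no description. The 9 samples were marked with hashtag antibodies and run together. No label connects a hashtag with its mouse or site, so the samples are called populations 1 to 9 and no sites or antibodies were compared. With 1 mouse per antibody there was no replicate, and no test was run: differences are described by size, and the 95% intervals (exact Clopper-Pearson for shares, exact Poisson for levels, exact conditional binomial for ratios) cover counting error only.

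After filtering, 21094 cells with a hashtag held 126562210 UMIs (unique molecular identifiers, each counting 1 captured RNA molecule). The populations held 2051 to 2550 cells and 9082690 to 31322375 UMIs, with medians of 3374 to 10662 UMIs per cell. All cells came in 1 table, in which no barcode was listed more than once. Cells were put into classes by fixed marker genes: a lineage needed at least 3 UMIs of its panel (T cells Cd3d, Cd3e, Cd3g and Trac, for example) and 3 times those of any other lineage. Activated T cells needed at least 3 UMIs of a panel such as Pdcd1, Lag3 and Gzmb, and naive T cells at least 2 of a panel with Lef1, Ccr7 and S1pr1, with at most 1 of the activation panel. Levels are given as CPM, the UMIs of a gene in every 1000000 UMIs of the class. Since 5′ libraries count the start of each molecule, a level does not grow with gene length.

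A ribosome joins a small subunit, which reads the mRNA, to a large subunit, which forms the peptide bond, and a cell needs the proteins of both in matched amounts. Most mRNAs for these proteins begin with a 5′ terminal oligopyrimidine tract, a C followed by a run of C and T, through which the kinase mTOR and the binding protein Larp1 regulate their translation and stability. Naive lymphocytes are small resting cells, and they build up their ribosomes when they are activated.

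The starts of some of the members on which the values below turn are shown because the tract is the sequence feature that the family is known for. Each line gives 15 bases before and 15 from the start site that RefSeq annotates in GRCm38.p6, 5′ to 3′ on the transcript's strand, and the capitals mark a tract found by the search (a C followed by at least 4 pyrimidines, beginning within 5 bases of the start).
Rps24 (chr14:24490663-24490692, plus strand): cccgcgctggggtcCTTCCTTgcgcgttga
Rps27 (chr3:90213634-90213663, minus strand): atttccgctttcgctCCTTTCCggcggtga
Rps27rt (chr9:114982725-114982754, minus strand): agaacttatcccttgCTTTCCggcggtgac
Rps27l (chr9:66946071-66946100, plus strand): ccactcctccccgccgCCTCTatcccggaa
Rpl12 (chr2:32961697-32961726, plus strand): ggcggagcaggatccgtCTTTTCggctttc
Rpl7a (chr2:26910792-26910821, plus strand): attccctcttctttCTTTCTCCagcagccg
Rpl22l1 (chr3:28805493-28805522, plus strand): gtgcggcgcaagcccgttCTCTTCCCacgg
Rps19 (chr7:24884577-24884606, plus strand): tccgaaatctcgcgagactcgacgcccgac
Rpl10 (chrX:74270801-74270830, plus strand): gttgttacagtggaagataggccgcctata
The search kept the qualifying C nearest the start and read forward only. Pyrimidines directly before a marked tract, as in Rps27 and Rpl7a, were left out. The tract lengths and starts given here depend on this rule. The windows of Rps19 and Rpl10 held no match. RefSeq windows matched 57 of the 77 structural members by symbol, and 27 of the 57 (47.4%) held a tract, with a median length of 8 bases. Among all genes of the table with a window 21.7% held a tract, and among all windows 18.4% did. A tract beginning exactly at the annotated start was found in 13 structural members (22.8%) and in 2.78% of the genes with a window. Of 68 matched mitochondrial ribosomal protein genes, which serve the separate ribosome of the mitochondrion, 17 (25%) held a tract. A match is a description of these letters, and an annotated start can differ from the start used in these cells.

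Ribosomal protein genes held 18.1% of all UMIs, and the share differed more than 3-fold between classes of cells. It was highest in naive CD8 T cells, at 31.8% (31.76 to 31.82; 1902 cells), followed by naive CD4 T cells at 29.5% (1064 cells). B cells outside the germinal centre had 22.9% (6032 cells), activated CD4 T cells 22.2% (416), natural killer (NK) cells 21.3% (469), germinal centre B cells 20.3% (114), activated CD8 T cells 20.1% (1664) and regulatory T (Treg) cells 18.9% (295). Migratory dendritic cells had 12.6% (77 cells), macrophages 10.8% (2814) and monocytes 9.13% (9.10 to 9.15; 507). Of these 11 classes, pooled over populations, the 8 of lymphocytes lay above the 3 myeloid ones. Single populations came closer: Treg cells of populations 1 and 4 had 11.7 and 10.1%. Macrophages had 9.65 and 9.36% in these populations and 11.8% in population 7. Among rare classes, 19 conventional dendritic cells had 16.2%, 25 plasmacytoid dendritic cells 13.8%, 7 plasma cells 8.36% and 15 neutrophils 4.32% (4.12 to 4.52), and the 5674 cells in no class had 20.9%. Between single cells the spread was wide: the middle 90% of naive CD8 T cells ran from 23.1 to 38.3%, of activated CD8 T cells from 6.49 to 35.1%, and of macrophages from 2.37 to 15.3%.

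The gates rested on few genes, so 9 classes were checked against 4 or 5 known markers each that their own gate did not use. Treg cells were the highest of all classes in 4 of 4 markers, monocytes in 4 of 5, migratory dendritic cells in 4 of 5, other B cells in 4 of 5, macrophages in 3 of 5, germinal centre B cells in 3 of 4 and NK cells in 2 of 5. For T cells the markers are shared by all T classes: naive CD4 T cells led in 1 of 5 and activated CD8 T cells in 0 of 5, with other T classes above them. Naive CD8 and activated CD4 T cells were not checked. The split into naive and activated T cells was thus not checked by markers outside the gates. Classes also differed in depth, from a median of 2994 UMIs per cell in other B cells to 15721 in macrophages. Within most classes the deeper cells had the higher share: in naive CD4 T cells it was 26.6, 29.4 and 31.2% in 3 equal groups of cells ordered by UMIs, from the shallowest to the deepest, and in NK cells 14.6, 19.2 and 23.9%, while in monocytes it was 9.13, 8.88 and 9.28%. Among cells of 2000 to 10000 UMIs alone naive CD8 T cells stayed highest (31.9%), and the lowest class became macrophages, at 8.23% against 9.03% in monocytes.

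**Figure D1:**
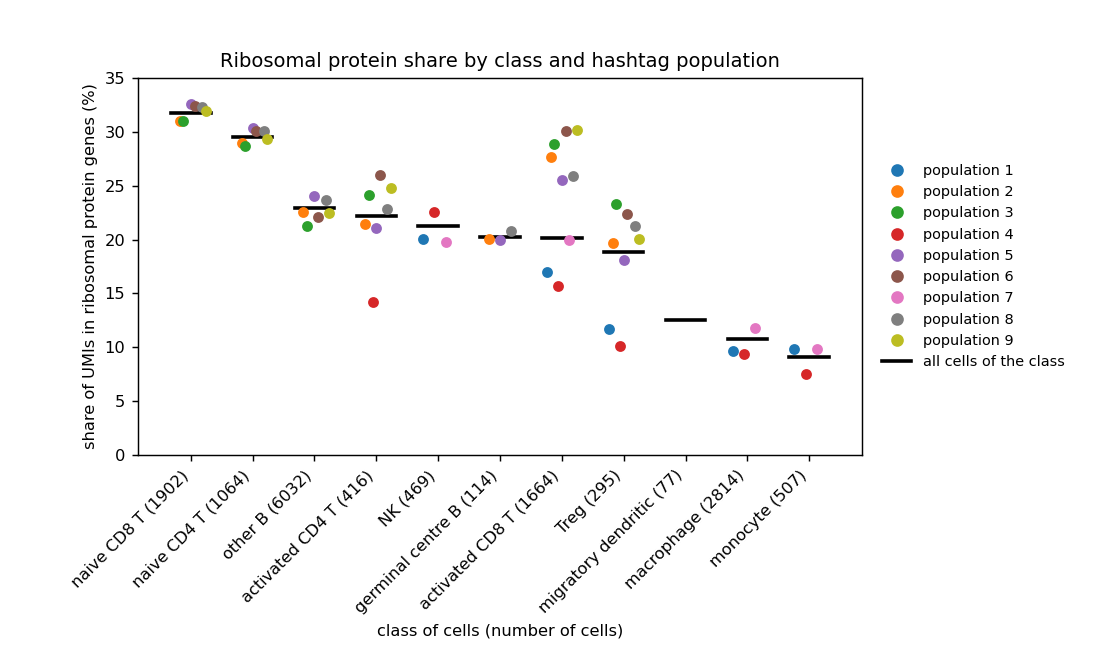
Share of a class's UMIs that lay in ribosomal protein genes (y axis, percent) for 11 classes (x axis, with the number of cells). Black lines are all cells of the class and coloured points are hashtag populations with at least 20 cells of it. Naive T cells lie between 28.7 and 32.6% in the 6 populations shown for them, and macrophages and monocytes at or below 11.8%. Activated CD8 T cells spread from 15.7 to 30.2% over 9 populations, and from 25.5 to 30.2% in those 6.

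The share was nearly constant in naive cells over populations 2, 3, 5, 6, 8 and 9. It varied widely in activated T cells, which also cover populations 1, 4 or 7. In populations 2, 3, 5, 6, 8 and 9 alone, activated CD8 T cells had 25.5 to 30.2%. Those of them with no UMIs of division genes had 29.6 to 31.8% there. Naive cells reached 20 cells in populations 2, 3, 5, 6, 8 and 9 only, where naive CD8 T cells had 31.0 to 32.6% (median 32.1%) and naive CD4 T cells 28.7 to 30.4% (median 29.7%). Macrophages, monocytes and NK cells reached 20 cells in populations 1, 4 and 7 only. Macrophages had 9.65, 9.36 and 11.8% there, monocytes 9.85, 7.47 and 9.89%, and NK cells 20.1, 22.5 and 19.8%. Between naive T cells and these 3 classes, class and population therefore cannot be told apart. Over all cells the share ran from 11.3% in population 4 to 26.7% in population 6.

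Activated CD8 T cells, the killer cells of the immune response, were present in all 9 populations. Their share was 17.0, 27.6, 28.9, 15.7, 25.5, 30.0, 19.9, 25.9 and 30.2% in populations 1 to 9. Populations 1, 4 and 7 were the 3 lowest and did not overlap the others. Treg cells, which restrain other T cells, had 11.7, 19.7, 23.3, 10.1, 18.1, 22.4, 21.3 and 20.1% in populations 1, 2, 3, 4, 5, 6, 8 and 9, and population 7 held under 20 of them. Activated CD4 T cells had 21.4, 24.1, 14.2, 21.0, 26.0, 22.9 and 24.8% in populations 2, 3, 4, 5, 6, 8 and 9. In each of these 3 classes the populations lowest in ribosomal protein share were also the lowest in the median mitochondrial percentage per cell. Unlike this median, the shares and the levels in CPM are of pooled UMIs. The median mitochondrial percentage is given first. In activated CD8 T cells it was 0.899, 0.993 and 0.967% in populations 1, 4 and 7, and 1.59 to 1.92% in the other 6. In Treg cells it was 0.666 and 0.517% in populations 1 and 4, and 1.29 to 1.43% elsewhere. In activated CD4 T cells it was 0.843% in population 4 (22 cells) and 1.523 to 1.655% in the other 6, where population 5 had the lowest ribosomal protein share and the highest mitochondrial one. Malat1, a nuclear transcript, had 7491 and 8016 CPM in Treg cells of populations 1 and 4 and 3514 to 5495 elsewhere. In activated CD8 T cells it overlapped, with 5863, 5359 and 3620 CPM in populations 1, 4 and 7 and 3709 to 6245 in the others, and in activated CD4 T cells population 4 had 7596 CPM and the others 5379 to 7813. C1qa, C1qb and C1qc, macrophage genes, together had 59.0 to 128 CPM in activated CD8 T cells of the 9 populations, against 16691 to 18238 CPM in macrophages of populations 1, 4 and 7. The part of RNA quality and of stray RNA in these differences was not tested.

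A share can fall because a cell holds fewer ribosomal protein molecules or more of all others, and the 2 parts were read separately. Activated CD8 T cells held a mean of 1477 ribosomal protein UMIs per cell and naive CD8 T cells 1472, a ratio of 1.00, while the UMIs of all other genes were 1.86-fold higher. Treg cells held 1283 and naive CD4 T cells 1262 (ratio 1.02, other genes 1.83-fold), and activated CD4 T cells 1264 (ratio 1.00, other genes 1.47-fold). These means pool unlike populations. The medians per cell differed more, at 1242 in activated and 1442 in naive CD8 T cells. They were 833 in Treg, 1063 in activated CD4 and 1238 in naive CD4 T cells. Activated CD8 T cells held 1123 to 2594 ribosomal protein UMIs per cell over the 9 populations and naive CD8 T cells 1413 to 1561 over 6, and in each of these 6 the activated cells held more, at 1723 to 2594. Treg cells held 450 to 2042 over 8 populations and naive CD4 T cells 1167 to 1356 over 6. Within these 6 Treg cells held more than naive CD4 T cells in 5 (1364 to 2042 against 1203 to 1356), and in population 2 they held 1100 against 1167. Activated CD4 T cells likewise held more in 5 of the 6 (1211 to 1681), and in population 2 they held 1143. These are means, and in CD4 T cells the medians mostly went the other way. The Treg median was lower in populations 2, 5, 6, 8 and 9 (847 to 1177 against 1075 to 1327). In population 3 it was higher (1168 against 1123). The activated CD4 median was lower in populations 2, 3, 5, 8 and 9 (897 to 1236 against 1075 to 1322). In population 6 it was higher (1446 against 1327). Activated CD8 medians were higher, at 1641 to 1974 against 1392 to 1521.

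In the myeloid and B lineages the absolute numbers moved more than the shares. Macrophages held 1700 ribosomal protein UMIs per cell and monocytes 809, a ratio of 2.10, with 1.75-fold more UMIs of other genes. Germinal centre B cells held 2888 and other B cells 725, a ratio of 3.98, with 4.66-fold more of other genes. Macrophages, the class with the second lowest share, thus held more ribosomal protein UMIs per cell than naive T cells did. UMIs per cell depend on capture as well as on RNA content, and the 2 cannot be told apart here. The gates also count UMIs per cell, so a class that needs more marker UMIs takes in deeper cells. This holds for germinal centre B cells, macrophages and activated T cells, and its part in the ratios per cell was not tested.

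**Figure D2:**
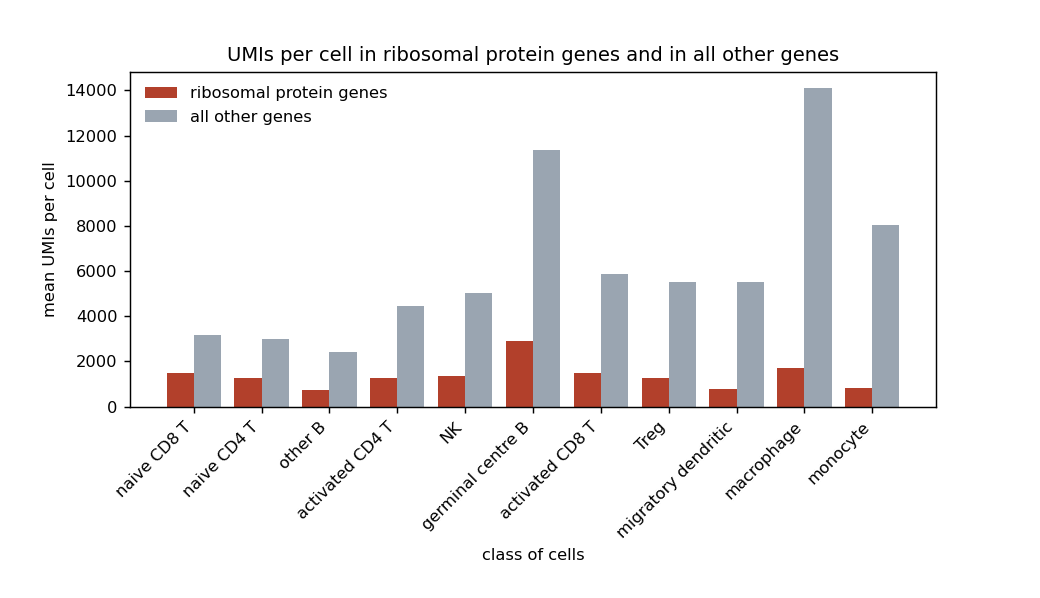
Mean UMIs per cell (y axis) in ribosomal protein genes and in all other genes for the same 11 classes (x axis), pooled over populations. Naive and activated T cells have similar ribosomal protein bars (1262 to 1477 UMIs) and differ in the other bar, and macrophages have 1700 beside 14121 UMIs of other genes.

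Nearly all structural members followed the same order of classes. Of the 77, 69 were highest in naive CD8 T cells, 4 in naive CD4 T cells, 3 in germinal centre B cells and 1 in NK cells, and 63 were lowest in monocytes, 9 in migratory dendritic cells and 5 in macrophages. Naive CD8 T cells exceeded macrophages in 77 of 77, by 1.31-fold to 6.13-fold with a median of 2.83-fold, and by at least 2-fold in 71. No share of all genes stands beside these counts, so they have no background and describe the members only. Naive CD8 T cells and macrophages also came mostly from different populations, so class and population cannot be told apart in this pair. Across the 11 classes, 72 of 77 had a Pearson r above 0.9 between their log2 CPM and the log2 share of the module, of which each is a part; the lowest r was 0.65.

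The 10 most abundant members held 24.8% of its UMIs, and structural members had a median of 2178 CPM over all cells. Rps24, a small subunit protein that is mutated in some cases of Diamond-Blackfan anaemia, led with 6529 CPM, and Rpl13 (4936), Rps20 (4759), Rpsa (4413) and Rps16 (4163) were also among the most abundant. Rps24 had 13060 CPM in naive CD8 T cells (12985 to 13136), 9619 in other B cells, 6697 in activated CD8 T cells, 2952 in macrophages and 2613 in monocytes. Within naive CD8 T cells it had a lowest, median and highest value of 12821, 13174 and 13453 CPM over 6 populations, and within activated CD8 T cells 4973, 8642 and 11328 CPM over 9, so that the groups did not overlap. Rpl13, of the large subunit, had 8944 CPM in naive CD8 T cells and 2442 in monocytes.

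The composition of the module, meaning each member's share of the members' UMIs, changed far less than its size. Across 11 classes the median structural member spanned 0.57 on the log2 scale between its lowest and highest class, and 7 of 77 spanned more than 1. Among those that varied most were Rpl10, Rps27, Rpl12, Rps19 and Rpl7a. Rpl10, a large subunit protein that joins late in assembly, made up 0.302% of the module in naive CD8 T cells and 0.682% in macrophages, while its own level was 960 and 733 CPM. Rpl7a, also of the large subunit, went from 0.605 to 1.14%. Rpl12, at the base of the stalk that recruits elongation factors, went the other way, from 0.991% in naive CD8 T cells to 0.624% in macrophages and 0.436% in monocytes.

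One class also stood apart in composition. In migratory dendritic cells Rps19, another Diamond-Blackfan anaemia gene, made up 2.55% of the module, against 0.984% (NK cells) to 1.498% (germinal centre B cells) in the other 10 classes, at 3198 CPM (3041 to 3361). This class rests on 77 cells and reached 20 cells in no population.

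By role, the 4 proteins of the P stalk and its base (Rplp0, Rplp1, Rplp2 and Rpl12) made up 6.99% of the module in naive CD8 T cells, 5.16% in other B cells and 5.89% in macrophages. The 8 proteins at the rim of the exit tunnel made up 6.94% of it in naive CD8 T cells, 8.12% in macrophages and 8.57% in migratory dendritic cells. Rps2 and Rps3, at the mRNA entry channel, made up 2.91% in naive CD8 T cells and 3.78% in germinal centre B cells, and Rpl5 and Rpl11, which form a particle with 5S rRNA that also binds Mdm2, 1.87 to 2.30% in all 11 classes. The small subunit's share of UMIs over the large subunit's was 1.006 in naive CD4 T cells, 0.988 in naive CD8 T cells, 0.987 in other B cells, 0.912 in activated CD8 T cells and 0.870 in macrophages.

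**Figure D3:**
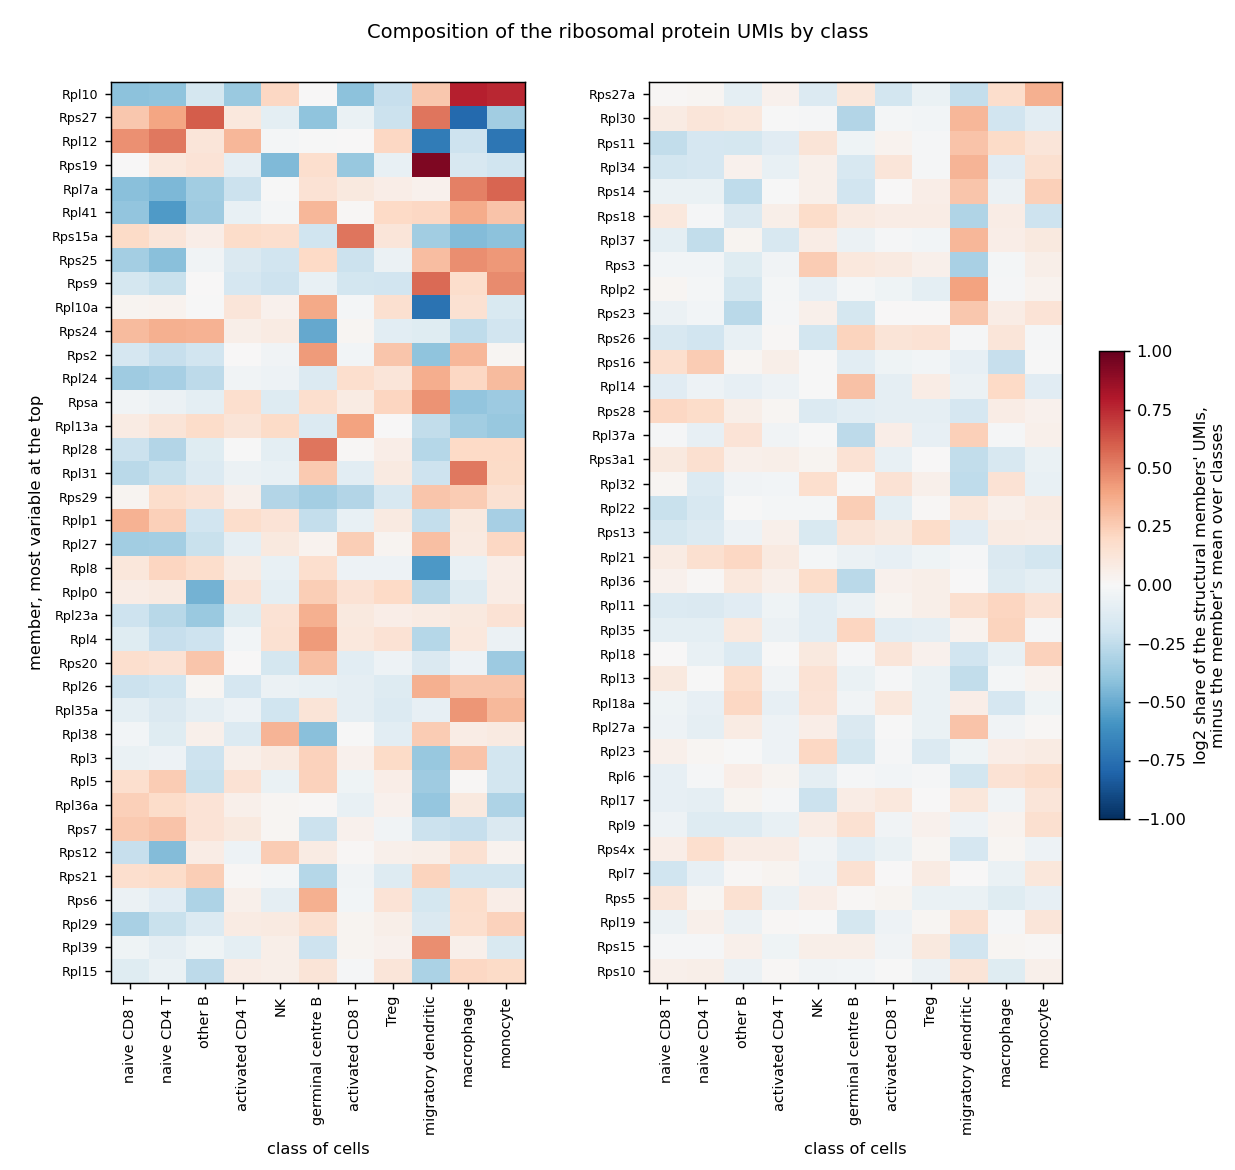
Share of the structural members' UMIs held by each of 75 members (rows, in 2 panels, most variable first) in 11 classes (columns), as log2 minus the member's mean over classes. Most rows are pale, and the deep colours lie in the upper rows of the left panel, such as Rpl10 high in macrophages and monocytes and Rps19 high in migratory dendritic cells.

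In each comparison of classes, a gene was counted as lower or higher where its CPM differed at least 1.5-fold and the interval left out 1, among genes with at least 50 UMIs in both classes together. Of the 87 members 83 were measured in each of the 7 comparisons, and Rpl6l, Rpl39l, Rpl3l and Rpl10l were not. Beside the main count of members stands the share of all measured genes that met the same rule. Counts of members on the same side in all populations were not made for all genes. The same holds for counts under other settings or without single populations. Those counts have no background and describe the members only.

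**Figure D4:**
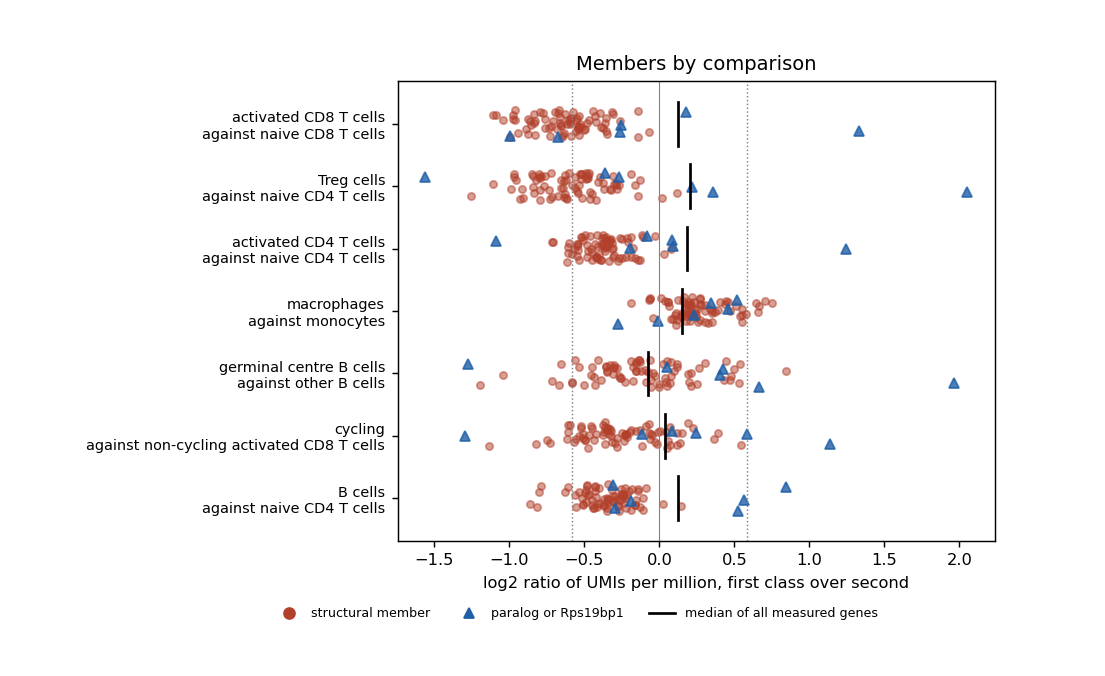
log2 ratio of CPM (x axis, first class over second) of the 83 measured members in 7 comparisons (rows). Circles are structural members, triangles paralogs and Rps19bp1, black lines the median of all measured genes, and dotted lines the 1.5-fold limit. Structural members lie to the left of the black line in the 3 T cell comparisons at the top. Some triangles lie to its right, and Rps27l is the farthest right there.

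Activated CD8 T cells had a ribosomal protein share 0.632 times that of naive CD8 T cells (0.631 to 0.633). Of 83 members 47 were lower and 1 higher, against 12.8% and 23.7% of all 10287 measured genes, and the members' median log2 ratio was -0.61 against 0.12 for all genes. All 77 structural members lay below 1 in the classes pooled over populations. The share of all genes below 1 was not counted, so this count has no background and describes the members only. The lowest were Rpl12 (1459 against 3149 CPM, 2.16-fold lower, 2.12 to 2.20), the stalk protein Rplp1 (3405 against 7240, 2.13-fold) and Rps19 (2068 against 4266, 2.06-fold), and Rpl27 was nearly level (2359 against 2476). The size of this difference rested on which populations were pooled. In the 6 populations with at least 20 cells of both classes the ratio was 0.890, 0.932, 0.784, 0.926, 0.800 and 0.944 in populations 2, 3, 5, 6, 8 and 9, and over these 6 together 0.879, with 0 members lower and Rps27l higher. Within them Rpl12 had a ratio of 0.805, Rplp1 0.830 and Rps19 0.852. These ratios pool UMIs, so deep cells weigh more. The median share per cell in these populations was 29.19, 30.75, 31.17, 31.15, 27.95 and 31.39% in activated CD8 T cells. In naive CD8 T cells it was 31.03, 31.1, 32.39, 32.25, 32.26 and 31.92%. Activated CD8 T cells with no UMIs of division genes had pooled shares of 29.6 to 31.8% there, and naive CD8 T cells 31.0 to 32.6%. Leaving out population 1 left 26 members lower and leaving out population 4 left 28. In all 6 populations 48 of 83 members lay on the lower side and 1 on the higher side.

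Treg cells had a share 0.640 times that of naive CD4 T cells (0.638 to 0.643), with 39 members lower and 1 higher, against 9.47% and 25.8% of all 8439 measured genes. Here the difference remained within populations, at 0.679, 0.812, 0.595, 0.745, 0.707 and 0.683 in populations 2, 3, 5, 6, 8 and 9, and 62 of 83 members lay on the lower side in all 6. With these 6 populations alone 24 members were lower and 1 higher, and the ratio was 0.711. The lowest were the retrogene Rps27rt (22.5 against 66.4 CPM, 2.96-fold lower, 2.16 to 4.14), Rps27, a small subunit protein with a zinc finger (1836 against 4392, 2.39-fold), and Rps24 (5760 against 12426, 2.16-fold). Rps27 had a lowest, median and highest value of 1197, 1847 and 2352 CPM in Treg cells of 8 populations and 4217, 4419 and 4585 in naive CD4 T cells of 6, with no overlap. Rpl41, the smallest ribosomal protein, stood at 837 against 770 CPM. Its near copy Gm10076, counted as a separate gene, went the other way, at 3493 against 3835 CPM, so the direction for Rpl41 is uncertain.

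Activated CD4 T cells differed less from naive CD4 T cells, with a ratio of 0.751 (0.749 to 0.754), and 0.693 to 0.864 over 6 populations. Of 83 members 7 were lower and 1 higher, against 4.09% and 18.2% of all 8462 measured genes. The 7 were Rps27rt (31.2 against 66.4 CPM), Rps24 (7580 against 12426, 1.64-fold lower, 1.61 to 1.67), Rps27 (2689 against 4392, 1.63-fold), Rps16, Rps19, Rpl12 and Rps7. In all 6 populations 69 of 83 members lay on the lower side, most of them by less than 1.5-fold. The count depends on single populations: 14 were lower without population 3, 4 without population 4 and 3 without population 5, and with cells of 2000 to 10000 UMIs alone 2 were lower. The comparisons of Treg and of activated CD4 T cells share their naive CD4 T cells.

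Macrophages had a slightly higher share than monocytes, the blood-derived cells they can arise from, with a ratio of 1.18 (1.17 to 1.18). It was 0.980, 1.25 and 1.19 in populations 1, 4 and 7, and the direction was reversed, at 0.911, among cells of 2000 to 10000 UMIs, so the direction depends on depth. No member was lower and 5 were higher, against 11% and 21.3% of all 11300 measured genes, which is fewer than the background in both directions. Among the 5 were Rpl12 (671 against 398 CPM, 1.69-fold, 1.61 to 1.77), Rpl3, near the peptide bond centre (1227 against 753, 1.63-fold), Rplp1 (2045 against 1289, 1.59-fold) and Rpl36a (681 against 436). Rpl12 had 534, 531 and 781 CPM in macrophages of populations 1, 4 and 7 and 425, 313 and 437 CPM in monocytes, so it was higher in each and the groups did not overlap. Without population 1, 9 members were higher, and among cells of 2000 to 10000 UMIs 0 were.

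Germinal centre B cells, which divide fast while their antibody genes mutate, had a share 0.884 times that of other B cells (0.880 to 0.887), and 0.891, 0.829 and 0.881 in populations 2, 5 and 8. Members lay on both sides: 6 were lower and 3 higher, against 22.5% and 21.5% of all 10187 measured genes, so that a smaller share of members than of genes was counted in either direction. The lower were Rps27rt (25.2 against 61.1 CPM), Rps27 (1729 against 3955, 2.29-fold lower, 2.20 to 2.38), Rps24 (4670 against 9619, 2.06-fold), Rps21, Rps29 and Rpl38. Among the higher were Rps27l (253 against 64.9 CPM, 3.90-fold, 3.48 to 4.36) and Rps19bp1 (44.9 against 28.4, 1.58-fold). Rps27 had 2039, 1688 and 1583 CPM in germinal centre B cells of populations 2, 5 and 8, and 3822 to 4070 in other B cells of 6 populations. Depth differed, with medians of 10626 and 2994 UMIs per cell, and among cells of 2000 to 10000 UMIs Rps27l was 1.95-fold higher, Rps27rt stood at a ratio of 0.640 (0.349 to 1.08) and Rps19bp1 at 0.908.

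Among activated CD8 T cells, the 174 with at least 3 UMIs of division genes such as Top2a and Mki67 (cycling) had a share 0.815 times that of the 1124 with none (0.813 to 0.818), with 9 members lower and 2 higher, against 9.78% and 16.5% of all 9156 measured genes, so that the share of members counted as lower was near the background. The lowest were Rps27rt (16.7 against 41.1 CPM), Rps27 (1173 against 2577, 2.20-fold lower, 2.11 to 2.28) and Rps24 (4360 against 7712, 1.77-fold). The higher were Rps27l (205 against 93.4 CPM, 2.20-fold) and Rps19bp1. Within populations 1, 4 and 7 the ratio of the share was 0.872, 0.944 and 0.928. With these 3 alone it was 0.936, with 2 members lower and 1 higher, and Rps27rt had a ratio of 0.650 (0.421 to 0.975) in place of 0.407. The value also turned on depth: among cells of 2000 to 10000 UMIs the ratio was 0.608, with 65 members lower and 1 higher, and Rps19bp1 stood at a ratio of 0.698. Without population 4, 16 members were lower and 2 higher, and without population 5, 5 were lower and 1 higher.

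All B cells pooled had a share 0.771 times that of naive CD4 T cells (0.770 to 0.773), and 0.735 to 0.776 in the 6 populations that held both. Of 83 members 6 were lower and 1 higher, against 13.1% and 23.9% of all 10613 measured genes, a smaller share than the background in both directions. Of the 83, 75 lay on the lower side in all 6 populations. The lower ones were led by Rplp0 (3782 against 6871 CPM, 1.82-fold lower, 1.79 to 1.84), the protein to which the stalk dimers attach, Rpl5 (1164 against 2052, 1.76-fold) and Rplp1 (3567 against 6227, 1.75-fold), followed by Rpl12, Rps16 and Rps23. Of these 6, 3 belong to the list of 4 proteins of the P stalk and its base. Rplp0 had a lowest, median and highest value of 3015, 3520 and 3897 CPM in other B cells of 6 populations and 6656, 6863 and 7103 in naive CD4 T cells of the same 6. This comparison shares its naive CD4 T cells with the 2 CD4 T cell comparisons above.

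The paralogs held 0.769% of the module's UMIs, and Rps27l was the only member to be higher in 6 of the 7 comparisons. Rps27l encodes a close relative of Rps27 and is known as a target gene of p53. It had 44.6 CPM in naive CD4 T cells (38.7 to 51.2), 48.4 in naive CD8 T cells, 64.9 in other B cells, 106 in activated CD4 T cells, 121 in activated CD8 T cells, 132 in NK cells, 168 in monocytes, 185 in Treg cells, 240 in macrophages, 253 in germinal centre B cells and 800 in migratory dendritic cells (722 to 884). Its lowest classes were the highest of Rps27, which had 4392 CPM in naive CD4 T cells, 1836 in Treg cells and 706 in macrophages. Migratory dendritic cells broke the pattern, with 2047 CPM of Rps27 beside the highest level of Rps27l. Rps27l was 4.15-fold higher in Treg than in naive CD4 T cells (3.49 to 4.95), with a lowest, median and highest value of 123, 163 and 281 CPM over 8 populations against 28.5, 44.2 and 49.7 over 6, and no overlap. In activated CD8 T cells it had 49.98, 111 and 216 CPM over 9 populations against 41.5, 48.5 and 53.3 in naive CD8 T cells over 6, with an overlap at the low end. Among cells of 2000 to 10000 UMIs it was 2.47-fold higher in Treg and 1.55-fold higher in activated CD4 T cells than in naive CD4 T cells. The start windows of the pair differ as well: the marked tract of Rps27 begins at the annotated start with 7 bases, and that of Rps27l 1 base later with 5. In Rps27 further pyrimidines lie directly before the marked tract, so its start and length depend on the search rule.

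**Figure D5:**
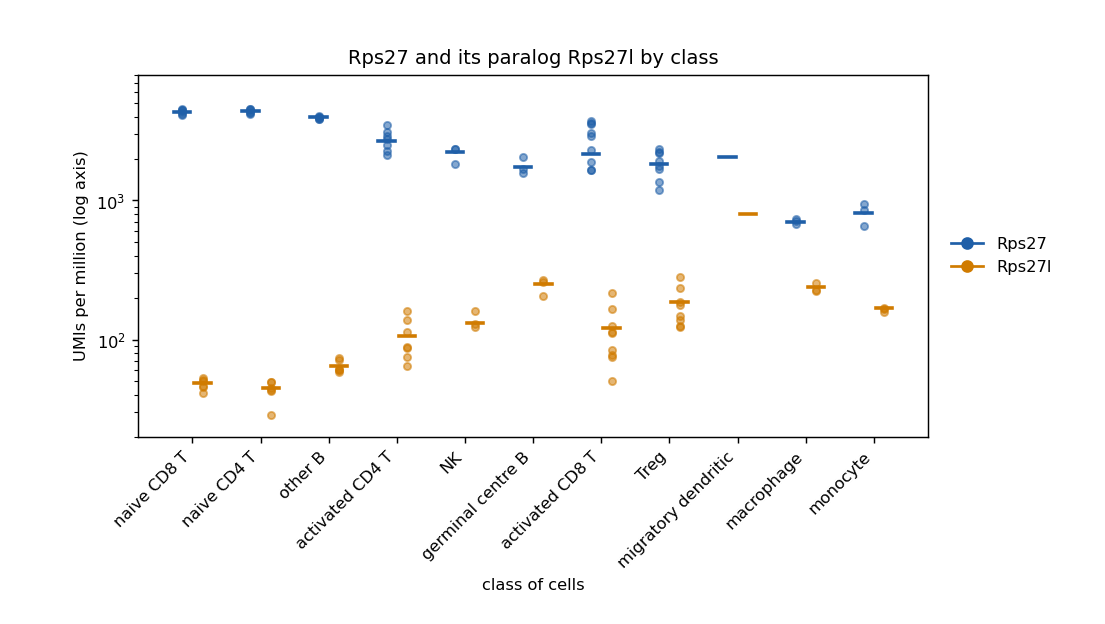
CPM (y axis, log scale) of Rps27 and of its paralog Rps27l in 11 classes (x axis). Lines are all cells of a class and points are populations with at least 20 of its cells. Rps27 lies at 3822 CPM or more in the naive T cells and other B cells and at 945 or less in macrophages and monocytes, and Rps27l at 73.1 CPM or less in the former and 157 or more in the latter.

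The other paralogs were less mobile or hardly present. Rpl22l1, a relative of Rpl22 known for a role in T cell development, followed the module, with 828 CPM in naive CD8 T cells (809 to 847), 519 in activated CD8 T cells and 181 in monocytes. Rpl36al ranged only from 450 CPM in migratory dendritic cells to 909 in germinal centre B cells, and Rpl7l1, a nucleolar relative of Rpl7, from 48.3 CPM in activated CD8 T cells to 83.7 in germinal centre B cells. Rps27rt, which descends from a copied Rps27 transcript, moved with Rps27, from 66.4 CPM in naive CD4 T cells to 10.7 in macrophages, and reads of the pair may have been split between them. Rpl3l, the muscle paralog of Rpl3, had 59 UMIs in all cells, of which 25 lay in monocytes and 21 in macrophages. Rpl6l had 81 and Rpl39l 76 UMIs in all, too few to compare. Rpl10l, known from testis, had 0 of 126562210 UMIs, which allows up to 3.

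Other genes of the ribosome and its supply did not all move with the members. Their values, here and below, come from classes pooled over populations and were not computed within shared populations. Fau, which encodes a ribosomal protein fused to a ubiquitin-like part, had 5762 against 7094 CPM in activated and naive CD8 T cells (1.23-fold lower, 1.22 to 1.24) and 4397 against 6698 in Treg and naive CD4 T cells (1.52-fold, 1.49 to 1.56). Gnb2l1, a scaffold on the small subunit, had 1668 against 2449 CPM in the former pair (1.47-fold lower, 1.440 to 1.497) and 1584 against 2176 in the latter (1.37-fold, 1.32 to 1.43). Of 16 other mRNAs known for a terminal oligopyrimidine tract, mostly translation factors, 1 was lower and 1 higher in each of these 2 comparisons. Of all measured genes 12.8% were lower and 23.7% higher in the former, and 9.47% and 25.8% in the latter. The list's median log2 ratios were -0.25 and -0.10. Nap1l1, a histone chaperone, was the higher gene both times, at 1.76-fold and 2.16-fold, and Eef1b2 (0.639) and Tpt1 (0.602) the lower.

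Ribosome biogenesis genes, which make and process rRNA, had medians above those of the ribosomal protein genes in several comparisons. In germinal centre against other B cells 12 of 20 were higher and 1 lower, against 21.5% and 22.5% of all measured genes, with a median log2 ratio of 0.76 against -0.12 for the members and -0.08 for all genes. Among the 12 were Dkc1 (2.67-fold), Nop2 (2.53-fold) and the nucleolar protein Ncl (2.10-fold), while Myc, the growth regulator, was the lower gene (0.495). In cycling against other activated CD8 T cells 9 of 20 were higher and 0 lower, against 16.5% and 9.78% of all genes, with a median of 0.52 against -0.28 for the members and 0.04 for all genes. In macrophages against monocytes 9 of 20 were higher and 0 lower, against 21.3% and 11% of all genes, with a median of 0.55 against 0.23 and 0.15. In activated against naive CD8 T cells, in contrast, 10 of 20 were lower and 0 higher, against 12.8% and 23.7% of all genes. Among the 10 were Gnl3 (0.404) and Polr1b (0.518). This pair pools unlike populations, which changed the members' count above, and the list was not recounted within shared populations. The list's genes are few and low, with 1333 to 3874 CPM in sum in the first class of each comparison.

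Of 76 measured mitochondrial ribosomal protein genes, 58 were higher and 0 lower in germinal centre against other B cells, where 21.5% and 22.5% of all genes were, with a median log2 ratio of 0.81 against -0.08 for all genes. In the comparisons of activated T cells or Treg cells with naive T cells their counts were near or below the background. In activated against naive CD8 T cells 14 were higher and 5 lower, against 23.7% and 12.8% of all genes, and in Treg against naive CD4 T cells 22 were higher and 1 lower, against 25.8% and 9.47%, with medians of 0.24 and 0.33 against 0.12 and 0.20. In macrophages against monocytes 28 were higher and 0 lower, against 21.3% and 11% of all genes. In cycling against non-cycling activated CD8 T cells 17 were higher and 0 lower, against 16.5% and 9.78%. In B cells against naive CD4 T cells 2 of 77 were higher and 4 lower, against 23.9% and 13.1%. Of 11 genes of mTOR and Larp1 signalling at most 3 were counted in any comparison. Of all measured genes 4.09 to 22.5% were lower and 16.5 to 25.8% higher, depending on the comparison. Eif4ebp1, the translation repressor that mTOR phosphorylates, was the largest of them, at 3.21-fold in Treg and 2.65-fold in activated CD4 T cells against naive CD4 T cells and 4.21-fold in B cells.

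The genes outside the module whose levels followed its share most closely were sought by Pearson r over 11 classes, among 3327 genes of at least 100 CPM in any of these classes. The classes share populations and library, and r is given as a description. Among the closest were Rpl9-ps6 (0.993), Heph (0.991), Taf1d (0.980), Gm8186 (0.967), Cnot6 (0.963), and the elongation factor genes Eef1b2 (0.962) and Eef1a1 (0.961). Several of these rows hold or overlap sequence of a member. Rpl9-ps6 is 99.8% identical to Rpl9 over 87.6% of its transcript. Heph encodes a copper oxidase, and an annotated copy of Rpl17 that is not itself in the count table, 99.7% identical, lies inside it on its strand. Cnot6, which encodes an mRNA deadenylase, contains in the same way a copy of Rpl30 that is 99.7% identical. Heph had 1798 CPM in naive CD8 T cells and 474 in monocytes, and over 11 classes it held 1.23 to 1.63 times the UMIs of Rpl17. Whether its UMIs came from Heph or from Rpl17 was not tested.

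Reads of some members may thus have been counted elsewhere. A search of the annotated transcripts found 872 copies at least 90% identical over at least 50% of a member's transcript, for 63 of 77 structural members. Of these, 41 are rows of the table, related to 26 members, and their UMIs came to 3.31% of those of the members. Gm10076, a copy of Rpl41, had 370353 UMIs against 84738 for Rpl41 itself, and Rpl9-ps6 313412 against 77052 for Rpl9, and their ratios ran from 3.63 to 5.07 and from 3.48 to 4.65 over 11 classes. Levels of Rpl41, Rpl9, Rpl17, Rps27rt and the other members with near-identical copies are therefore uncertain, and differences between members in abundance can reflect how such reads were assigned. Adding the 41 rows to the module gave a share of 32.7% in naive CD8 T cells and 9.47% in monocytes.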

How the data were processed

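Live CD45+ cells of 9 samples, pooled with hashtags, were read with the 10x Single Cell 5' PE HT kit. The authors deposited 1 matrix of UMI counts per gene and cell. The submitters' processing notes name Cell Ranger 8.0.1 and the series text the mm10 genome; neither says how reads in introns were treated. The stated limits (at least 500 UMIs, at least 200 genes, at most 20% mitochondrial UMIs) removed 93 of 21624 barcodes. A further 258 cells had no hashtag at least 3 times the next. Scrublet (in scanpy 1.11.5, expected rate 8%) marked 184 doublets (0.855%), which were removed; some doublets may remain. This left 21094 cells. Each cell took a class from marker panels, without clustering, and counts were summed by class and population. The 5 deposited entries are libraries of 1 pool, not samples, so nothing was tested, and intervals (scipy 1.17.1) cover counting error only. Near copies were found among GENCODE transcripts of the same genome with BLAST 2.17.0, and start windows came from RefSeq (GRCm38.p6).

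Single genes were named by rule: the 6 most and 6 least abundant members, the 3 largest and 3 smallest ratios of each comparison, the 6 members most variable in composition, all paralogs with Rps19bp1, and the 8 genes most alike in level. A few genes that this rule picks, and the rows of such members in the plot of composition, are not reported here. Other members were named where counts were small, after their values were seen. Rpl6l was placed with the paralogs once the table had been read. Members and lists were chosen with earlier results of these data known. The calling rule was tested on simulated data. Gates, hashtag limit, doublets, depth, denominator, fold, count minimum, single populations and near copies were varied.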

Additional observations from a re-analysis of the deposited data

How the results depend on the processing

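Intervals cover counting error, and the populations carry no replicate, so changes smaller than the spread between populations cannot be read. Pooled ratios of classes depend on which populations enter and on depth per cell, and the cause was not tested. Alternatives with only shared populations or with near copies added were chosen after seeing the data. No paired analysis was possible because the library numbers mark parts of 1 pool and no test was run; ratios of classes within a hashtag population stand beside each comparison.

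With cells of 2000 to 10000 UMIs alone, the highest share was 31.85% and the lowest 8.229%, and the ratio of shares was 0.6425 for activated to naive CD8 T cells, 0.6338 for Treg and 0.7604 for activated CD4 to naive CD4 T cells, 0.9114 for macrophages to monocytes (reversed), 0.8271 for germinal centre to other B cells, 0.6079 for cycling to non-cycling CD8 T cells and 0.78 for B to naive CD4 T cells. The members counted there were 3 for activated CD4 T cells, 0 for macrophages and 66 for cycling cells, and Rps19bp1 reversed, to 0.9083 in germinal centre B cells and 0.6981 in cycling cells. With only populations holding both classes, the ratios were 0.8787, 0.7112 and 0.7763 for activated CD8, Treg and activated CD4 T cells, 0.8629 for germinal centre B cells and 0.936 for cycling cells, with 1, 25, 4, 12 and 3 members counted. A fold of at least 2 left 4, 4, 2, 0, 4, 3 and 0 members in the 7 comparisons in the order above. Without mitochondrial, immunoglobulin and Malat1 UMIs the highest and lowest shares were 32.61 and 9.252%, and the ratios 0.6271 (activated CD8), 0.6363 (Treg), 1.182 (macrophages), 0.8741 (germinal centre), 0.8123 (cycling) and 0.7751 (B cells). With near copies added they were 32.73 and 9.467%, with ratios of 0.6351, 0.644 and 0.7538 for activated CD8, Treg and activated CD4 T cells and 0.774 for B cells, and 8 members counted in macrophages and 11 in B cells. Structural members alone gave 31.6 and 9.016%, and 0.8802 for germinal centre B cells. A lineage gate of at least 2 UMIs gave 31.73% as the highest share and ratios of 0.6372 (Treg) and 0.8189 (cycling), and one of at least 6 gave 31.98%, 0.6345 (activated CD8), 0.6429 (Treg) and 0.8747 (germinal centre). A hashtag at least 10 times the next gave 31.91%, 0.636 (Treg), 0.7445 (activated CD4), 0.8783 (germinal centre) and 0.8223 (cycling). Leaving out each population in turn, the highest share lay between 31.62 and 32.02% and the lowest between 8.131 and 9.929%. The ratios lay between 0.614 and 0.691 (activated CD8), 0.6125 and 0.6697 (Treg), 0.736 and 0.763 (activated CD4), 1.144 and 1.208 (macrophages), 0.8771 and 0.9091 (germinal centre), 0.7825 and 0.8473 (cycling) and 0.7641 and 0.7783 (B cells), and the counts between 27 and 52, 33 and 50, 4 and 15, 4 and 9, 9 and 11, 6 and 18, and 7 and 8. Of 756 values of named genes under alternatives, 2 reversed and 11 moved by over 1.5-fold.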
